A study of Mus musculus with 2 samples.

Results

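Paired receptors of the CD300, PIR, PILR, SIRP and Siglec families were read in total RNA from mouse blood neutrophils. The 10 genes described are Cd300a, Cd300lb, Cd300ld, Cd300lf, Pirb, Lilrb4a, Pilra, Pilrb1, Sirpa and Siglece, out of 55536 genes in the deposited tables. They were chosen by name, with earlier results of these data known, and their symbols came from the transcript names in the deposited tables, joined to the gene tables by gene identifier. The study holds 1 group of 2 libraries, numbered as biological replicates 1 and 2, of neutrophils from the peripheral blood of adult C57BL/6J mice aged 5 to 6 weeks. No genotype or treatment beyond the strain is named, and sex was not recorded. The labels name the ScriptSeq v2 kit, an input of 100 ng and fragment sizes of 200 to 1000. How the cells were taken from blood was not used here. Both libraries carry the same donor entry, so the SD over the 2 libraries may be technical spread. The libraries held 22646991 and 21471673 expected counts, the deposited estimates of reads per gene, in replicates 1 and 2. With no second condition, no test between conditions could be made, and every value below is a description of these libraries.

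Paired receptors are surface proteins that share a similar outer part but pass opposite signals. The inhibitory partner carries tyrosine motifs in a long cytoplasmic tail, and once phosphorylated by Src-family kinases such as Lyn these recruit the phosphatases encoded by Ptpn6, Ptpn11 and Inpp5d. The activating partner has a short tail and a charged residue in its membrane span, through which it pairs with an adaptor such as the products of Tyrobp, Fcer1g or Hcst and signals through Syk. In neutrophils such receptors are known for setting the threshold of adhesion, phagocytosis, oxidative burst and cytokine release.

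The sequences that part the inhibitory from the activating members are shown first, since the results below turn on which transcripts hold them. All were read from GENCODE M21 transcripts (assembly GRCm38, the one called mm10). A tail motif was searched as isoleucine, leucine, valine or serine, any residue, tyrosine, any 2 residues, then isoleucine, leucine or valine, after the most hydrophobic stretch of 19 residues, which stands for the membrane span. The first tail motif of each of the 7 inhibitory members, and both of Lilrb4a, are coded by these 18 bases, with the tyrosine codon in capitals. The Pirb motif shown spans an exon junction, and the others lie within 1 exon.
Cd300a: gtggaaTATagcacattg
Cd300lf: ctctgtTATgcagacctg
Pirb: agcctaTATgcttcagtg
Lilrb4a, first: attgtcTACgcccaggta
Lilrb4a, second: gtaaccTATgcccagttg
Pilra: atcgtgTATgcttccatc
Sirpa: atcacaTACgcagacctg
Siglece: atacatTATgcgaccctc
The tails held 3 such motifs in Pirb and Sirpa, 2 in Cd300a, Cd300lf and Lilrb4a, and 1 in Pilra and Siglece. The tail was 179 residues long in Pirb (Pirb-201), 127 in Cd300lf (Cd300lf-203), 117 in Sirpa (Sirpa-204), 114 in Cd300a (Cd300a-202), 95 in Siglece (Siglece-201), 85 in Pilra (Pilra-201) and 75 in Lilrb4a (Lilrb4a-201).

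The 3 activating members had no tail motif and a tail of 33 residues in Cd300lb (Cd300lb-201), 24 in Cd300ld (Cd300ld-201) and 8 in Pilrb1 (Pilrb1-201). Their membrane spans each held 1 charged residue, lysine in Cd300lb and Pilrb1 and glutamate in Cd300ld, whereas the spans of the leading coding transcripts of the inhibitory members held none. The 57 coding bases of the span are set side by side for 2 opposed pairs and for Cd300lb, with the codon of the charged residue in capitals.
Cd300ld: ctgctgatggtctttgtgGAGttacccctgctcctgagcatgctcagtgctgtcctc
Cd300lf: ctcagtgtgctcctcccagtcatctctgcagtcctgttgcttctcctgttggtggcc
Cd300lb: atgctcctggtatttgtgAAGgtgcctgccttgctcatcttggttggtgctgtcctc
Pilrb1: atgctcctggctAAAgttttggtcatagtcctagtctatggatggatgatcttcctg
Pilra: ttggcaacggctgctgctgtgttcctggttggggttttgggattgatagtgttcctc

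All 10 members were detected, which means that the TPM reached 1 in replicate 1 and in replicate 2. TPM is a length-scaled abundance that sums to the same total in each library. Over the 22015 nuclear protein-coding genes, 34.9% passed the same rule, and since the members were chosen with results known, their count is not a test. The median member stood at a TPM of 30.1 in replicate 1 and 27.7 in replicate 2, and the median of the 7673 detected protein-coding genes at 4.42 and 4.15. On the log2(TPM + 1) scale the members' median was 4.90 ± 0.08 (SD, n = 2). Expected counts ran from 1007 and 957 for Pilrb1 to 26631 and 24308 for Lilrb4a, so that all members lay far above the 3 counts that a count of 0 allows.

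**Figure D1:**
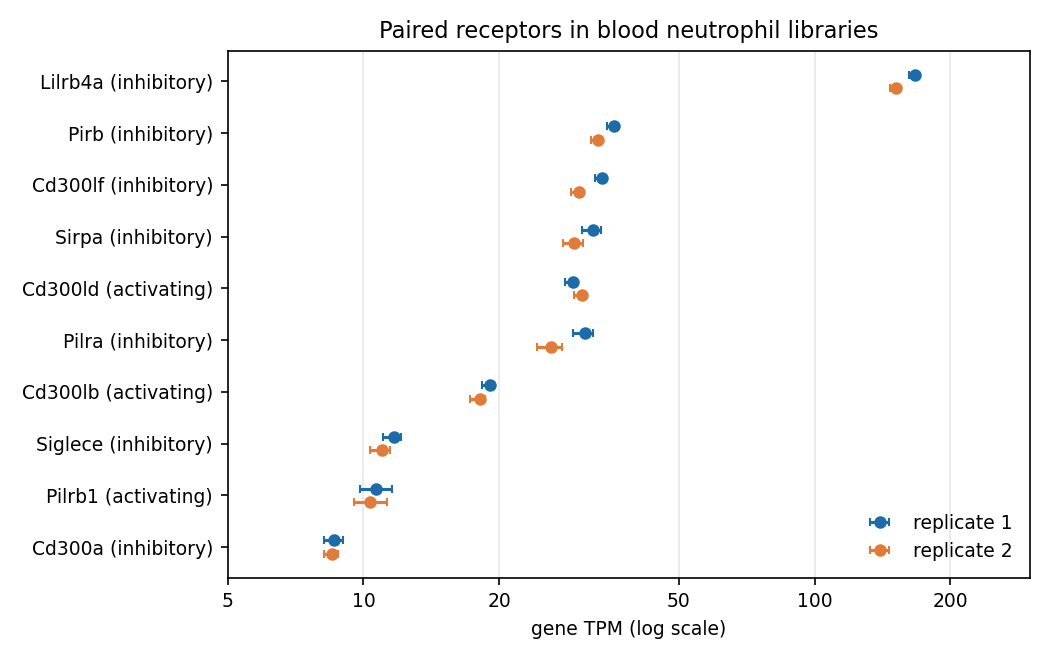
Gene TPM (x axis, log scale) of the 10 paired receptors (y axis, ordered by mean) in replicate 1 (blue) and replicate 2 (orange). Points are the deposited values and bars the interval bounds deposited with them. Lilrb4a stands at 167 and 152, and the other 9 genes lie between 8.53 and 35.9.

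Lilrb4a, which codes for an inhibitory receptor also called gp49B that binds an integrin and fibronectin, was the highest member. It lies on chromosome 10 from 51490956 to 51496611 on the plus strand. Its TPM was 167 in replicate 1 and 152 in replicate 2 (mean 159 ± 11.1, SD, n = 2), which placed it 36th and 43rd among the protein-coding genes. The next member, Pirb, stood 2.21 ± 0.02 lower on the log2 TPM scale (n = 2). Most of the Lilrb4a level was assigned to transcripts that GENCODE classes as retained intron, as set out below.

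Pirb is the inhibitory PIR receptor, which binds MHC class I and restrains integrin signalling in neutrophils. It lies on chromosome 7 from 3711409 to 3720391 on the minus strand, and its TPM was 35.9 in replicate 1 and 33.1 in replicate 2. Cd300lf, an inhibitory lipid-binding CD300 receptor on chromosome 11 (115116214 to 115133992, minus strand), was at 33.8 and 30.1. Sirpa, whose product reads the CD47 signal on other cells, lies on chromosome 2 (129592835 to 129632228, plus strand) and was at 32.3 and 29.2.
These 3 inhibitory genes were lower in replicate 2 on the TPM scale, where the median over protein-coding genes was also lower.

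Cd300ld, an activating CD300 receptor on chromosome 11 (114982274 to 114989922, minus strand), was at a TPM of 29.2 in replicate 1 and 30.5 in replicate 2. Pilra, the inhibitory PILR receptor for sialylated glycoproteins, lies on chromosome 5 (137821952 to 137836281, minus strand) and was at 31.0 and 26.1. The order of Sirpa, Cd300ld and Pilra was not the same in both libraries, and neither neighbouring pair differed beyond its spread (0.04 ± 0.15 for Sirpa over Cd300ld and 0.07 ± 0.22 for Cd300ld over Pilra, log2 TPM, SD, n = 2). For Cd300lf over Sirpa the difference was 0.05 ± 0.02 and the deposited intervals met in both libraries. Pirb over Cd300lf, at 0.11 ± 0.04, differed beyond its spread, and its intervals did not meet in either library.

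The other 4 members were lower. Cd300lb, an activating CD300 receptor that signals through Tyrobp, lies on chromosome 11 (114922781 to 114934386, minus strand) and was at a TPM of 19.1 in replicate 1 and 18.1 in replicate 2. Siglece, an inhibitory sialic acid receptor that limits neutrophil recruitment, lies on chromosome 7 (43651070 to 43660161, minus strand) and was at 11.72 and 11.01. Pilrb1, the activating partner of Pilra on chromosome 5 (137852147 to 137858106, minus strand), was at 10.7 and 10.4. For Siglece over Pilrb1 the deposited intervals met in both libraries, with a difference of 0.11 ± 0.03 (log2 TPM, n = 2).
Cd300a, an inhibitory receptor for phosphatidylserine on chromosome 11 (114890041 to 114904654, plus strand), was the lowest at 8.62 and 8.53. Cd300a stood 0.29 ± 0.02 below Pilrb1 on the same scale.

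The order depended on the table. In the alignment-free transcript table, summed per gene, Cd300a was at 27.7 and 25.7 and stood above Siglece (19.6 and 17.5) and Pilrb1 (17.9 and 18.2). In that table the 467-base processed transcript Cd300a-203 took 50.2% and 48.9% of Cd300a, against 3.07% and 0% in the main transcript table. Pilra, the sixth in the main table, was the third there at 60.9 and 53.7, above Cd300lf, Sirpa and Cd300ld. Lilrb4a was the highest and Pirb the second in both tables when all transcripts were summed. Over coding transcripts, by the mean of the libraries, Cd300ld was the highest in both, Lilrb4a ranked 7 in the main and 8 in the alignment-free table, and Pirb ranked 6 and 10. The libraries differed on this in the alignment-free table. There the coding TPM of Lilrb4a was 10.6 in replicate 1 and 18.6 in replicate 2. Sirpa (46.6) stood above Cd300ld (45.0) in replicate 1.

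The 2 libraries gave close values. No member reached a 2-fold difference in TPM + 1, which 0.923% of the 9099 genes with a TPM of at least 1 and 50 counts did in either direction. The widest fold on the TPM + 1 scale was that of Pilra, at a TPM of 31.0 against 26.1. The ratio of expected counts of replicate 2 over replicate 1, scaled by library totals and with a 95% exact binomial interval for counting error only, lay below 1 for Sirpa (0.919, 0.888 to 0.952), Lilrb4a (0.963, 0.946 to 0.980) and Pirb (0.973, 0.948 to 0.9998). It lay above 1 for Cd300ld (1.11, 1.08 to 1.15) and Cd300a (1.08, 1.03 to 1.13). For Pilra the count ratio was 0.982 (0.939 to 1.03), an interval that held 1. Of 8148 protein-coding genes, 24.4% had an interval below 1 and 17.7% one above 1, so the shares of the members (3 and 2 of 10) were close to the background.

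The members also differed in which transcripts carried them. GENCODE classes a model that holds intronic sequence of a coding transcript, with no coding sequence assigned, as retained intron. Such models took 91.0% of the Lilrb4a TPM in replicate 1 and 88.7% in replicate 2. They took 57.1% and 58.8% of Pirb, 53.4% and 43.8% of Pilra, 20.4% and 17.6% of Pilrb1, and 11.2% and 14.5% of Sirpa. The other 5 members have no model of that class. Among them, Cd300lf has a processed transcript, Cd300lf-206, that also keeps an intron of coding transcripts whole, as given below. Over the 5110 detected protein-coding genes that have one, the median share was 24.6% and 24.2%, and 12.2% of genes were over 50% in both libraries. Lilrb4a and Pirb were over 50% in both, and Pilra in replicate 1. Only 0.372% and 0.646% of those genes had a higher share than Lilrb4a in replicates 1 and 2.

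**Figure D2:**
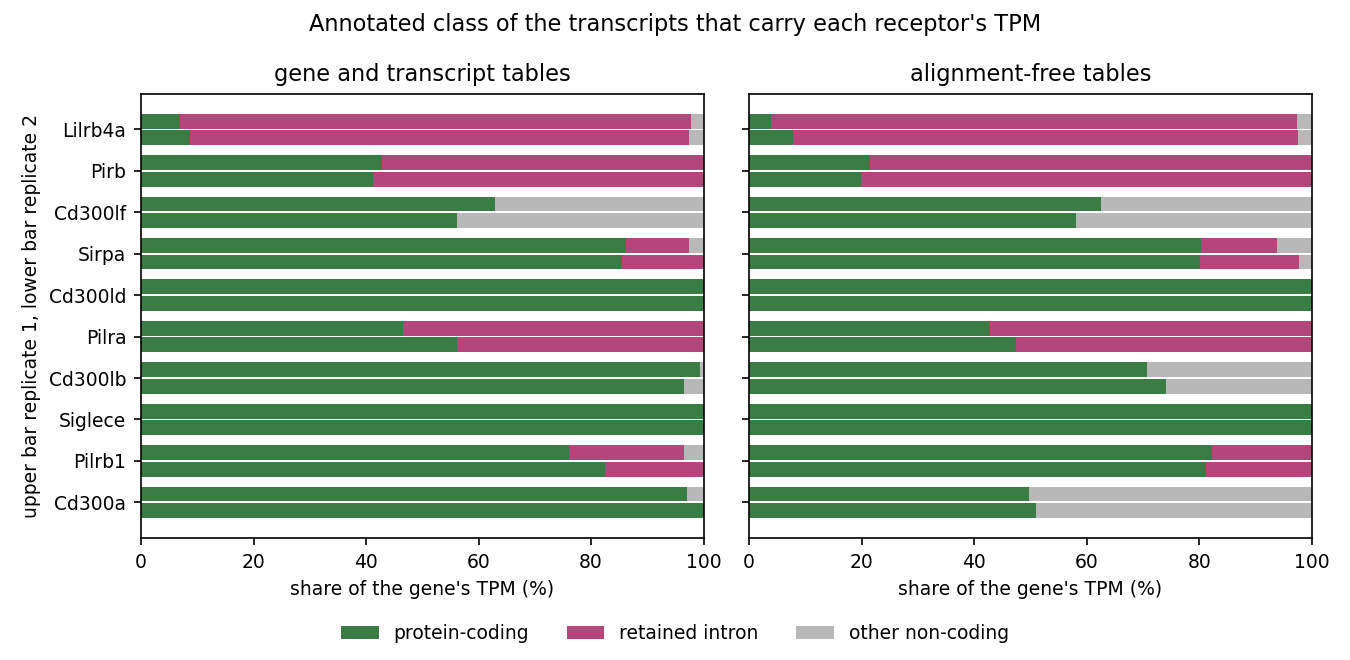
Share of each receptor's TPM (x axis, percent) in protein-coding (green), retained-intron (magenta) and other non-coding (grey) transcripts, per gene (y axis; upper bar replicate 1, lower bar replicate 2). The left panel shows the main tables and the right panel the alignment-free tables. Lilrb4a is at 6.86% and 8.72% coding in the main tables, and Cd300ld and Siglece are at 100% in both.

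The alignment-free table gave the same order for the retained-intron share. It put 93.5% and 89.9% of Lilrb4a, 78.6% and 80.1% of Pirb and 57.2% and 52.6% of Pilra in retained-intron models, against 15.4% of genes over 50% in both libraries in that table.

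Within Lilrb4a the leading transcript was the retained-intron model Lilrb4a-206 (1279 bases in 2 exons), with 46.6% of the gene's TPM in replicate 1 and 46.1% in replicate 2. Lilrb4a-207 followed with 20.3% and 19.4%, and Lilrb4a-209 with 13.3% and 13.7%. Of Lilrb4a-206, 60.8% of the bases lie outside the exons of the complete coding transcripts, of Lilrb4a-207 63.4% and of Lilrb4a-209 70.3%. Lilrb4a-206 keeps no intron whole. The exons of Lilrb4a-206 and Lilrb4a-207 still hold the bases of both tail motifs printed above, and those of Lilrb4a-209 hold neither. Coding transcripts of Lilrb4a held a TPM of 11.5 in replicate 1 and 13.2 in replicate 2, which is below the coding TPM of Cd300ld (29.2 and 30.5).

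The intron that Lilrb4a-207 keeps whole is shown because it separates the codons of the membrane span from those of the tail motifs. This intron spans chr10:51494179-51494792 on the plus strand, 614 bases, just after the exon that codes for the membrane span. The 20 bases on each side of its 5′ edge and of its 3′ edge are given with the first and last 2 intron bases in capitals, and the spliced junction of Lilrb4a-201 with the 2 joined exon bases in capitals.
Lilrb4a-207, 5′ edge: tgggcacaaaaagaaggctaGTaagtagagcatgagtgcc
Lilrb4a-207, 3′ edge: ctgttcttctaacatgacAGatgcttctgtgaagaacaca
Lilrb4a-201, junction: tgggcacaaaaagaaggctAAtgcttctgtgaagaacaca

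The Lilrb4a values are uncertain because near-identical genes lie beside it. Its coding sequence of 1005 bases is 100% identical to a stretch of Gm49339, a gene model that spans both neighbours (chr10:51480612-51496613), and matches Lilr4b, the neighbour also called gp49A, which has no tail motif, at 95.7% identity over 1012 aligned bases. Gm49339 was at a TPM of 5.72 in replicate 1 and 3.70 in replicate 2. Lilr4b was at 99.7 and 83.9, with 87.7% and 88.4% in retained-intron models. The bases of the membrane span of Lilr4b-201 are identical to those of Lilrb4a-201. Gm40645, an antisense gene over Lilrb4a, was at 0.26 and 0.14. No strand setting is given for the tables, so whether strand was used to divide reads of the 2 is not known. The older M4 gene table lists no entry with the identifier of Lilrb4a or Lilr4b. It lists the identifier of Gm49339 at a TPM of 53.8 and 46.2, above the M21 value of Gm49339 and below that of Lilrb4a. Whether that entry took up reads of Lilrb4a was not tested.

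Pirb was divided between the coding transcript Pirb-201, with 42.9% and 41.2% in replicates 1 and 2, and the retained-intron models Pirb-202 (36.9% and 39.7%) and Pirb-205 (17.3% and 15.9%). The alignment-free table gave 21.4% and 19.9% to Pirb-201 and 53.5% and 56.1% to Pirb-202. Pirb-202 keeps whole 1 intron of Pirb-201, of 227 bases, at chr7:3716891-3717117 on the minus strand, whose edges and spliced junction follow with capitals as above.
Pirb-202, 5′ edge: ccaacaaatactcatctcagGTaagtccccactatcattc
Pirb-202, 3′ edge: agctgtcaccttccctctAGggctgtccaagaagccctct
Pirb-201, junction: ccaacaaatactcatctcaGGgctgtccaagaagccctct
That intron makes up 7.77% of the bases of Pirb-202, and the rest lies in exons of Pirb-201.

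Pilra was divided between Pilra-201 (coding, 43.1% in replicate 1 and 50.5% in replicate 2) and the 708-base retained-intron model Pilra-203 (53.4% and 43.8%). The leading transcript was thus not the same in both libraries. The alignment-free table gave Pilra-202, a coding transcript with the same tail motif, 18.4% and 24.7%, against 2.01% and 1.86% in the main table. Pilrb1 had Pilrb1-201 at 42.9% and 54.3%, Pilrb1-206 at 32.1% and 25.2%, and the retained-intron model Pilrb1-203 at 20.4% and 17.6%.

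In Cd300lf the processed transcript Cd300lf-206, with no coding sequence assigned and 80.0% of its 3929 bases outside the exons of the coding transcripts, took 36.6% and 40.6%. Cd300lf-206 keeps whole an intron that has 1754 bases in Cd300lf-201 and 1733 bases in Cd300lf-202, though GENCODE does not class it as retained intron. The coding transcript Cd300lf-203 took 37.1% and 27.4%, Cd300lf-202 11.3% and 17.0%, and Cd300lf-201 14.6% and 11.8%. These 3 coding transcripts code for the same tail of 127 residues, so their division does not alter the motifs. Coding transcripts of Cd300lf held a TPM of 21.2 in replicate 1 and 16.9 in replicate 2.

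The remaining members were mostly coding in the main table. Cd300a-202 took 82.1% and 74.1% of Cd300a and Cd300a-201 14.8% and 25.9%, and the 2 code for the same tail. Cd300lb-201 took 69.2% and 62.0% of Cd300lb, and Cd300lb-203, a coding transcript of 119 residues against 255, took 30.2% and 34.6%. In the alignment-free table Cd300lb-202, a 353-base processed transcript, took 29.4% and 26.0%, against 0.56% and 3.41% in the main table. Cd300ld has 1 transcript, and Siglece-201 took 99.6% and 96.0% of Siglece.

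Sirpa was the most divided. Sirpa-204, the full-length coding model of 509 residues, led with 38.0% and 33.3%. Sirpa-201, of 513 residues, took 13.5% and 16.3%. The shorter Sirpa-209, of 291 residues, took 22.0% and 8.90%, Sirpa-213, of 172 residues, took 8.58% and 23.2%, and the retained-intron model Sirpa-212 took 11.2% and 14.5%. In the alignment-free table Sirpa-209 led with 33.6% and 31.0%. All 4 coding models named hold the 3 tail motifs, and the main-table shares of the 2 short models changed places between the libraries.
Over the 10 members the median share of the leading transcript, chosen by the mean of the libraries, was 50.1% ± 0.17 (SD, n = 2). Single members other than Cd300ld, which has 1 transcript, varied more than this median, up to an SD of 8.08 for Pilrb1 (42.9% and 54.3%).

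Within each library, inhibitory receptors can be set against activating ones. The 7 inhibitory members summed to a TPM of 321 in replicate 1 and 290 in replicate 2, and the 3 activating members to 58.9 and 59.0, a log2 ratio of 2.37 ± 0.10 (n = 2). Without Lilrb4a the ratio was 1.30 ± 0.11. With coding transcripts only, the sums were 110 and 103 against 56.3 and 56.5, and the ratio was 0.92 ± 0.08. When the activating relatives Pilrb2, the Pira genes and the Sirpb1 genes were counted with the activating members, the ratio was 1.17 ± 0.07 over all transcripts and -0.16 ± 0.05 over coding ones (-0.20 ± 0.01 in the alignment-free table). Inhibitory TPM thus exceeded activating TPM in each of these counts but the last. The counts with relatives added genes to the activating side only, and no further receptor to the inhibitory side. They left out Cd300c2, Cd300ld3, Gm15448 and Gm14548, and over coding transcripts they took the polymorphic pseudogene Gm15922 as coding. The direction of the last count therefore holds for this choice of genes only.

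**Figure D3:**
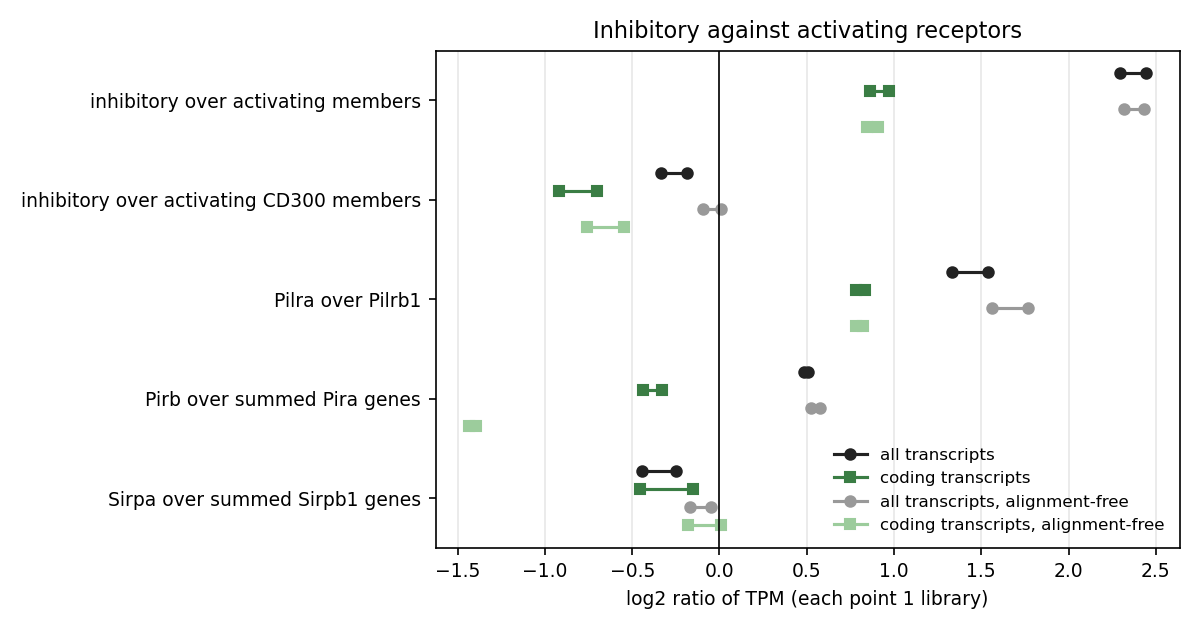
Log2 ratio of TPM of inhibitory over activating receptors (x axis) for the 5 comparisons (y axis), over all transcripts (circles) and coding transcripts only (squares), in the main tables (dark) and the alignment-free tables (pale). Each point is 1 library and a line joins the 2 libraries. Pirb over the Pira genes lies at 0.51 and 0.48 over all transcripts and at -0.44 and -0.33 over coding ones. The coding values count all of Gm15922, a polymorphic pseudogene, as coding.

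Among the CD300 members, which lie on chromosome 11, the activating genes stood slightly higher. The detected relatives Cd300c2 and Cd300ld3, on the same chromosome, were not counted. Cd300a and Cd300lf summed to a TPM of 42.4 in replicate 1 and 38.6 in replicate 2, and Cd300lb and Cd300ld to 48.3 and 48.6, a log2 ratio of -0.26 ± 0.10 (n = 2). With coding transcripts only it was -0.81 ± 0.15. In the alignment-free table summed per gene the ratio was -0.04 ± 0.07, within its spread, and the 2 libraries fell on either side of 0. Sequence likeness limits these values. The coding sequence of Cd300ld matches Cd300lf at 94.8% identity over 349 bases, and that of Cd300a matches the detected relative Cd300c2 at 94.0% over 364 bases. Cd300ld3, also detected, matches Cd300lf at 91.5% over 352 bases and Cd300ld at 88.6% over 430 bases.

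Pilra stood above Pilrb1 by 1.44 ± 0.14 on the log2 scale (n = 2), at 31.0 against 10.7 in replicate 1 and 26.1 against 10.4 in replicate 2. With coding transcripts only the difference was 0.81 ± 0.04. Pilrb2, a second activating PILR gene beside Pilrb1, was at 15.3 and 11.3, and against the sum of Pilrb1 and Pilrb2 Pilra stood 0.26 ± 0.01 higher. Over coding transcripts this turned, with Pilra at 14.5 and 14.7 against 20.04 and 18.26 for the sum, a difference of -0.39 ± 0.11, and -0.39 ± 0.06 in the alignment-free table. In the M4 table Pilrb2 was lower, at 6.62 and 5.98, and Pilra stood 0.90 ± 0.16 above the sum. The Pilrb1 coding sequence matches Pilrb2 at 93.5% identity over its whole length of 675 bases and Pilra at 95.1% over 468 bases, so the division of reads among the 3 genes is uncertain.

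Pirb stood 0.50 ± 0.02 (log2, n = 2) above the sum of the activating Pira genes, at 35.9 against 25.2 in replicate 1 and 33.1 against 23.7 in replicate 2. The sum took Pira2 (8.11 and 6.98), Gm15922 (4.62 and 4.16), which RefSeq places as Pira1, and Lilra6 (12.5 and 12.5), for which RefSeq gives the synonym Pira3. Over coding transcripts the ratio was -0.38 ± 0.08, and -1.41 ± 0.03 in the alignment-free table. These counts took all of Gm15922, which GENCODE classes as a polymorphic pseudogene, as coding. Without Gm15922 the main table leaves Pira2 (8.11 and 6.97) and Lilra6 (8.10 and 5.98) against Pirb (15.4 and 13.6). The direction then differs between the libraries. In the alignment-free table Pira2 alone (13.5 and 11.5) was above Pirb (13.2 and 10.9) over coding transcripts. Over all transcripts the ratio was also below 0, at -0.06 ± 0.02, when the neighbouring PIR-like genes Gm15448 (3.12 and 3.40) and Gm14548 (8.62 and 7.73) were added. The Pirb coding sequence matches Gm14548 at 97.3% and Pira2 at 96.9% identity over 1900 bases, and 75.3% of it has such a match. How reads were divided among these genes was not tested.

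Sirpa stood 0.35 ± 0.14 (log2, n = 2) below the sum of the activating Sirpb1 genes. Sirpb1c was at 19.9 in replicate 1 and 19.8 in replicate 2, Sirpb1b at 14.9 and 17.4, and Sirpb1a at 3.57 and 2.70, so their sum was 38.4 and 39.8 against 32.3 and 29.2 for Sirpa. The membrane spans of Sirpb1a-201, Sirpb1b-201 and Sirpb1c-201 are coded by identical bases, and reads within that stretch cannot tell the 3 genes apart. Sirpa is less like them, at 75.0% identity over 700 bases with Sirpb1b. In the alignment-free table Sirpa stood 0.11 ± 0.08 below the sum. Over coding transcripts of that table the log2 ratio was -0.09 ± 0.14, and the libraries fell on either side of 0 (0.01 and -0.18).

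The other genes of these families gave a divided picture. Of 8 further CD300 genes, 2 were detected in both libraries and 6 lay under a TPM of 1 in both: Cd300c2 was at 6.23 and 5.90 and Cd300ld3 at 5.04 and 4.97, and Cd300ld2 and Cd300ld5 had 0 counts. Of 7 further PIR and LILR genes that could be matched, 4 were detected and 3 lay under 1, with Lilra6 and Pira2 the highest of the 7 and Oscar, the osteoclast-associated receptor, at 0 counts. This list leaves out Lilr4b and Gm14548, whose values are given above and are higher than that of Pira2 in both libraries. Of 8 further Siglec genes, 4 were detected and 4 lay under 1. Cd22, a B-cell inhibitory Siglec, was at 56.4 and 40.1, Cd33 at 22.0 and 20.1, and Siglec15 at 0 counts. Siglece was thus lower than both Cd22 and Cd33. Of 6 other inhibitory myeloid receptors, 5 were detected, led by Pecam1 (12.99 and 11.72) and Fcgr2b (11.7 and 11.8), with Cd200r1 lowest at 0.94 and 0.88.

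**Figure D4:**
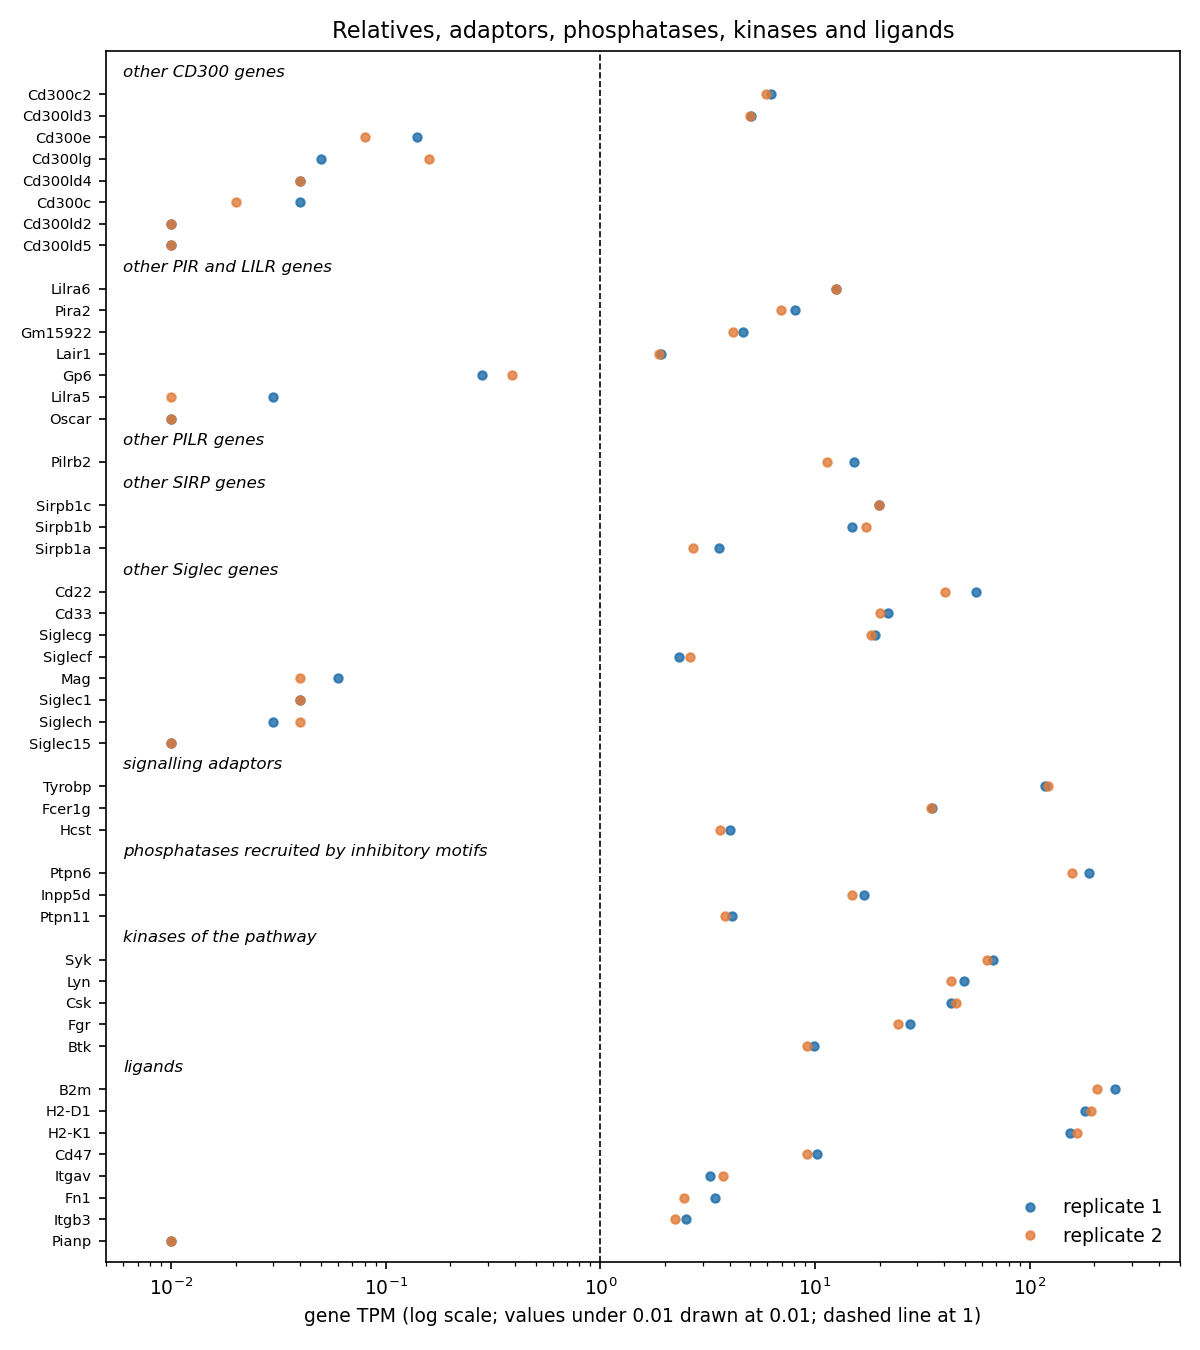
Gene TPM (x axis, log scale) of relatives, adaptors, phosphatases, kinases and ligands (y axis, grouped), in replicate 1 (blue) and replicate 2 (orange), with a dashed line at a TPM of 1. Ptpn6 stands at 189 and 158, Tyrobp at 118 and 122, and most further CD300 genes lie left of the line.

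The adaptors and phosphatases listed were all detected. Among the adaptors of the activating members, Tyrobp was at a TPM of 118 in replicate 1 and 122 in replicate 2, Fcer1g, the Fc receptor gamma chain, at 35.3 and 34.6, and Hcst at 4.0 and 3.62. Tyrobp alone was above the sum of the 3 activating members in both libraries. With Pilrb2, the Pira genes and the Sirpb1 genes added, that sum was 138 and 134, above Tyrobp in both. Among the phosphatases that the tail motifs recruit, Ptpn6 was at 189 and 158, Inpp5d at 16.9 and 14.9 and Ptpn11 at 4.10 and 3.82. Ptpn6 was therefore the highest of the 3 in both libraries, by a margin far beyond the difference between them.

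All 5 kinases of the pathway reported here were detected. Syk, which acts behind the adaptors, was at a TPM of 67.6 and 63.4. Lyn, which phosphorylates the tail motifs, was at 49.3 and 43.2, and Fgr, its relative in myeloid cells, was at 27.6 and 24.5. Csk, the kinase that restrains both, was at 42.9 and 45.3, and Btk at 9.87 and 9.15.

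Of 8 measured ligand genes, 7 were detected in the same libraries. The MHC class I genes for Pirb were high, with B2m at 251 and 206, H2-D1 at 182 and 194 and H2-K1 at 155 and 165. Cd47, the ligand of Sirpa, was at 10.2 and 9.18. For Lilrb4a, Itgav was at 3.23 and 3.73, Itgb3 at 2.51 and 2.24 and Fn1 at 3.44 and 2.46. Pianp, a glycoprotein ligand of Pilra, was at 0 and 0.01, with 0 and 2 counts.

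The labelled cell type was read against its markers. All 10 neutrophil markers were detected, with a summed TPM of 3137 in replicate 1 and 3084 in replicate 2, S100a9 (1123 and 1275) and S100a8 (786 and 712) highest and Ly6g lowest at 1.91 and 2.29. All 10 B-cell markers were detected too, with a sum of 682 and 621, Ighm (290 and 261) and Ighd (85.3 and 78.8) highest and Cr2 lowest at 16.4 and 13.5. B cells are known to express Pirb, Cd22, Lyn, Btk, Syk and Ptpn6, and the part of B-cell RNA in the levels of those genes was not tested. Of 10 monocyte markers 8 were detected, with a sum of 37.8 and 34.6, Csf1r (7.74 and 6.75) and Ly6c2 (7.21 and 6.83) highest and Ace lowest at 0.64 and 0.42. Monocytes are known to express Sirpa, Pilra, Lilrb4a and several CD300 genes, and Cd300e, a CD300 gene known from monocytes, was at 0.14 and 0.08. In such bulk RNA, fewer cells of a type and less RNA per cell cannot be told apart.

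The remaining marker lists were lower, except red cells. Red-cell markers summed to 4327 and 4262 (5 of 6 detected, Hba-a2 at 2897 and 2891 and Hbb-bs at 874 and 829 highest, Klf1 at 0.00 and 0.01). T-cell markers summed to 33.4 and 32.4 (8 of 9 detected, Cd3g at 7.74 and 6.62 and Trbc2 at 6.32 and 6.66 highest, Cd4 lowest at 0.58 in both). Platelet markers summed to 23.7 and 24.4 (4 of 7, Ppbp at 8.70 and 8.77 and Tubb1 at 5.31 and 5.82 highest, Gp6 lowest at 0.28 and 0.39). Natural killer markers summed to 7.69 and 7.76 (2 of 7, Gzma at 3.34 and 3.31 and Klrd1 at 2.19 and 2.40 highest, Eomes lowest at 0.15 and 0.18). Eosinophil markers summed to 5.47 and 6.00 (2 of 6, Siglecf at 2.33 and 2.62 and Il5ra at 2.19 and 2.48 highest, Prg3 at 0 counts). Dendritic cell markers summed to 2.43 and 2.30 (1 of 7, Cd209a at 1.00 and 1.26 and Ccr9 at 0.48 and 0.35 highest, Xcr1 lowest at 0.01 and 0.00). Basophil and mast cell markers, which matter here because mast cells are known for Lilrb4a and Cd300 receptors, summed to 0.84 and 0.83 with 0 of 6 detected, Ms4a2 at 0.12 and 0.46 and Cd200r3 at 0.36 and 0.12 highest and Mcpt4 at 0 counts.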

How the data were processed

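Per the labels, total RNA of blood neutrophils was sequenced in 2 libraries of 1 group. The authors deposited, per the file headers, expected counts and TPM per gene and transcript on GENCODE M21 and M4 models (mm10, as the deposited file list states), and each transcript's percent share of its gene. A further table deposited by the authors gives estimated counts and TPM per transcript; its listed parents hold no alignment, so it is called alignment-free. For programs and strand setting, nothing is given in the sources used here. The M21 gene table was the main one.

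Members and lists were chosen with earlier results of these data known. All members are named; of each other list, the 2 highest and the lowest by mean TPM, and every adaptor, phosphatase, kinase, ligand and paired relative, except that 1 gene is not reported here. Gene totals were 22646991 expected counts in replicate 1 and 21471673 in replicate 2; rows that name no gene held 1.63e-04% and 2.16e-04% of counts and were left out. Counting 3 reads as the limit that 0 allows gives 0.132 and 0.140 CPM. Intervals cover counting error only. Nuclear protein-coding genes held 8.81% and 8.35% of the TPM. The pseudocount was 1.

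Sequences were read from GENCODE M21 transcripts with Biopython 1.88, the span by Kyte-Doolittle hydropathy after residue 40, and likeness with BLASTN 2.17.0. Pira1 and Pira3 were matched through RefSeq on GRCm38.p6; 9 listed symbols had no match. Count ratios used SciPy 1.17.1. Alternatives used edgeR 4.0.16 (TMM) and DESeq2 1.42.0 (size factors) on rounded expected counts, for scaling only. On simulated libraries of 8636 genes, all of the 200 genes changed 4-fold were called, and the interval covered the truth in 95.3% of the others. The simulation drew counting error only, around a shared mean. It therefore checks the calculation and says nothing of the spread between the real libraries.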

Additional observations from a re-analysis of the deposited data

How the results depend on the processing

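The alternatives on coding transcripts, on Lilrb4a, on the paired relatives and on the choice of Pira genes were chosen after seeing the data. The paired relatives were added to the activating side only. Coding transcripts of the Pira genes include all of Gm15922, a polymorphic pseudogene. No cause was tested for any change given here.

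The members' median of log2(TPM + 1) was 5.65 in the alignment-free table, 8.40 after rescaling to nuclear protein-coding genes, which raises all values by construction, and 3.96 and 4.53 over coding transcripts in the main and alignment-free tables. Inhibitory over activating members was 1.34 in the M4 table, which lists no Lilrb4a identifier and where the entry of Gm49339, which spans that locus, was left out, 1.30 without Lilrb4a, 1.17 with the paired relatives, 0.92 and 0.88 over coding transcripts in the 2 tables, and -0.16 and -0.20 over coding transcripts of the 2 tables with the relatives. For the CD300 members the ratio was -0.042 in the alignment-free table and -0.81 and -0.65 over coding transcripts. Pilra over Pilrb1 was 1.70 in M4, 1.66 in the alignment-free table, 0.81 and 0.80 over coding transcripts and, against Pilrb1 and Pilrb2 summed, 0.26 in the main, 0.90 in the M4 and 0.44 in the alignment-free table and -0.393 and -0.385 over coding transcripts of the main and alignment-free tables. Pirb over the Pira genes was 0.46 in M4, 0.55 in the alignment-free table, 2.20 against Pira2 alone, -0.38 and -1.41 over coding transcripts and -0.057 with Gm15448 and Gm14548. Sirpa over the Sirpb1 genes was -0.11 in the alignment-free table and -0.086 over its coding transcripts, where the libraries gave 0.01 and -0.18. For the transcripts that led in the main table, the median share was 52.7% in the alignment-free table, where some of them did not lead. It was 65.2% in the M4 transcript table, which does not list the leading transcript of Lilrb4a.

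Leaving out replicate 1 or 2 gave 4.84 to 4.96 for the median, 2.30 to 2.44 for inhibitory over activating members, -0.33 to -0.19 for the CD300 ratio, 1.33 to 1.54 for Pilra over Pilrb1, 0.48 to 0.51 for Pirb, -0.45 to -0.25 for Sirpa and 49.98% to 50.2% for the leading share. All 10 members were detected, and 0 differed 2-fold between the libraries, under every alternative run, with 9 members listed in M4. No paired analysis was possible because there is 1 group. No value rests on a test.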
